A study of Mus musculus with 19 samples.

Results

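Fibroblast cultures from the gonad of adult mice were compared with fibroblast cultures from 6 other organs. The gonad cultures were 3 of the 19 samples of the study and were identified by their tissue label. The organs set against them were heart, liver, lung and tail, with 3 samples each, and kidney and skin, with 2 samples each. Lung replicate 2 entered only an alternative that used the deposited value table, so the comparison set 3 gonad arrays against 15 arrays of the other organs. The labels give the same description for every culture, from mice aged 8 to 10 weeks. The organs were cut into small pieces and digested with an enzyme, trypsin or collagenase. Which of these enzymes each organ received is not stated, so it may differ between gonad and the others. The cells were grown for 5 days in medium with 10% serum under 5% CO2. No cell sorting is described, so each culture holds whatever cells attached and grew. The labels do not say whether the gonads were testes or ovaries, give no strain, and do not say whether samples of an organ came from different animals. The p-values below therefore measure the spread between these samples, which may be technical.

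The gonad is built from somatic cells that arise from the coelomic epithelium of the genital ridge and from germ cells that migrate into it. Supporting cells, called Sertoli cells in the testis and granulosa cells in the ovary, surround the germ cells, while interstitial cells include steroid-producing cells, contractile cells, endothelial cells and fibroblasts. The transcription factors Nr5a1, Gata4 and Wt1 act early in the genital ridge and remain active in adult somatic cells of the gonad. Amhr2 is the receptor through which anti-Müllerian hormone acts.

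RNA was labelled with Cy3 and hybridised to 1-colour Agilent arrays. A level below is log2 of the background-subtracted spot intensity relative to the 75th percentile of its array, so a level of 0 is the brightness that 75% of probes stay under. Because 1 probe stands for each gene, levels are compared between arrays and never between genes. The question put to each gene was whether the mean of the gonad arrays differed from the mean of the 6 other organs, each organ counting equally. Log2 differences are gonad minus the other organs and are given ± SE of the fit. Where a probe was not above background on any array of 1 or more of the other organs, the change is given as a bound, written as at least so many fold. The bound covers those organs only, and single dim arrays in the remaining organs kept their own values. A gene was called where limma gave a Benjamini-Hochberg adjusted p under 0.05 and an absolute log2 difference of at least 1.

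One gonad array stood apart. Control spots that should be dark were bright on 5 arrays, gonad 3, heart 1, both kidney arrays and tail 2. On these arrays 84.8% to 96.5% of probes were well above background, against 50.1% to 76.9% on the other 13 arrays. Gonad 3 had 90.8%, against 52.9% on gonad 2 and 53.7% on gonad 1. Across the 19717 genes tested, gonad 1 and gonad 2 correlated at r = 0.990 and each was the other's nearest array. Gonad 3 correlated with them at 0.905 and 0.906 and was nearest to skin 1, at 0.944. A call is therefore described as held where the gene was also called, in the same direction, without gonad 3. As a further reading, the comparison was repeated on the 13 arrays without the 5 bright ones, with normexp background correction and quantile normalization, which leaves out kidney altogether.

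The 3 genes that mark gonad somatic cells were all higher in the gonad cultures. In bulk cultures, more cells of a type and more RNA per cell cannot be told apart. Nr5a1 had levels of 4.15, 3.73 and 3.12 on gonad arrays 1, 2 and 3, against -2.94 to 0.43 (median -2.25) on the 15 other arrays. Amhr2 had levels of 4.32, 2.98 and 1.80 in gonad, against -4.10 to 1.45 (median -1.88) elsewhere. All gonad arrays lay above every other array for both genes. Their differences were 5.53 ± 0.41 log2 units (adjusted p = 1.66e-05) for Nr5a1 and 4.83 ± 0.61 log2 units (adjusted p = 0.000513) for Amhr2. Gata4, which also acts in heart development, had levels of 3.63, 3.13 and 2.22 in gonad, against -7.22 to 3.00 (median -0.59) elsewhere. Its ranges overlapped, with heart arrays up to 3.00 and liver arrays also inside the gonad range, and the difference over the 6 organs was at least 23-fold (adjusted p = 6.19e-05). Of 20 general fibroblast genes 0 were called higher and 1, the collagen-binding proteoglycan Lum, lower, where over all 19717 genes 2.13% were called higher and 0.811% lower. On the 13 arrays 0 of the 20 were higher and 4 lower, with a median log2 difference of -0.45. Over all genes 3.3% were higher and 2.11% lower there. The type I collagen chain Col1a2 had levels of 9.25, 9.27 and 9.09 in gonad, against 6.07 to 9.59 (median 9.32) elsewhere.

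**Figure D1:**
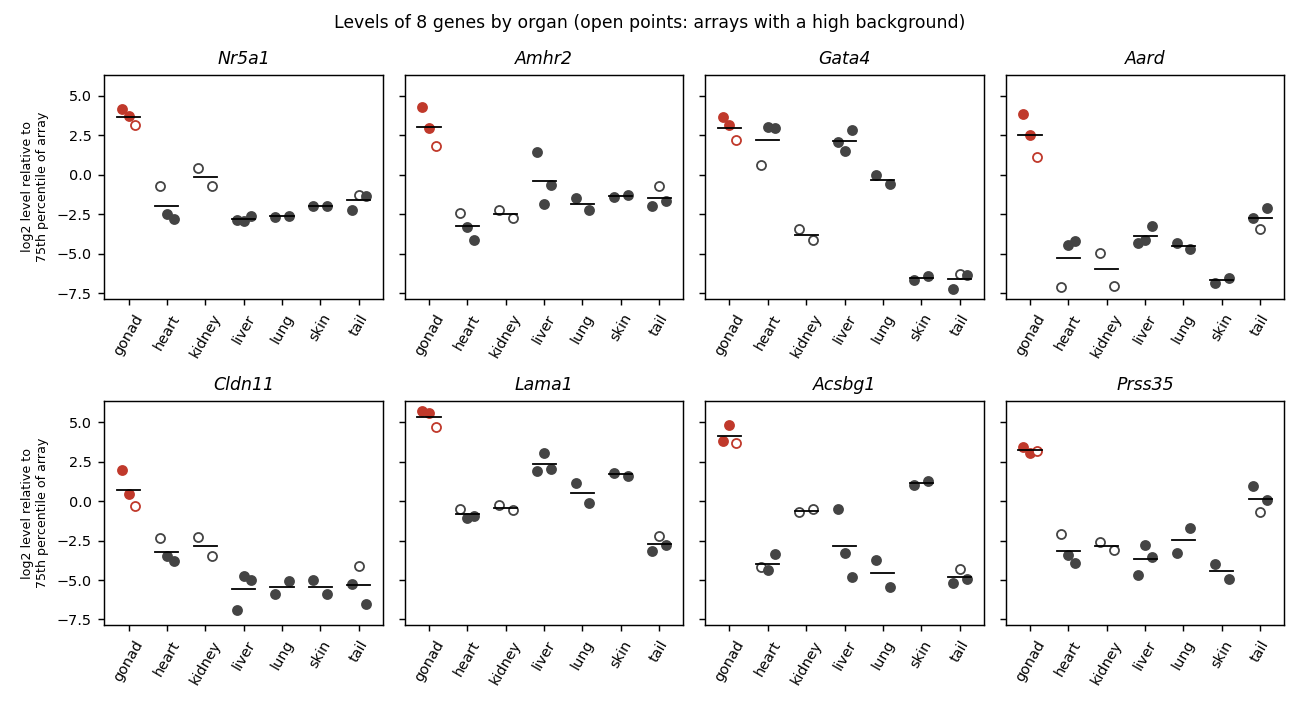
Levels of 8 genes by organ (y axis, log2 relative to the 75th percentile of the array; x axis, organ, gonad at the left). Each point is 1 array, open points are the 5 arrays with a high background and bars are organ means; the 3 gonad points lie above all other points for each gene except Gata4, where heart arrays reach 3.00.

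In all 579 genes were called, 419 higher in gonad (2.13% of 19717 tested) and 160 lower (0.811%). These shares are the reference for the counts of every gene list below. Of these, 409 higher genes (2.07%) and 150 lower genes (0.761%) held without gonad 3, and 0 changed direction. The median log2 difference was 2.39 over the held higher genes and -2.47 over the held lower genes, while over all genes it was -0.06. In the reading on 13 arrays 381 of the 409 and 117 of the 150 were called again, among 650 higher (3.3%) and 417 lower (2.11%) genes there. For list counts on the 13 arrays the reference is 3.3% higher and 2.11% lower. Without gonad 3 the balance turned over, with 607 genes higher and 1909 lower, although with normexp background correction and quantile normalization together the same arrays gave 760 calls, 77.4% of them higher. Of those lower genes 1759 were not called with all arrays, and 1350 of the 1759 were not well above background on gonad 1 or gonad 2. Leaving out gonad 1 or gonad 2, and so keeping gonad 3 beside 1 other array, left 212 and 225 calls, and leaving out heart 1 gave 1133. With the 15 other arrays pooled as 1 group, so that differences among the organs counted as spread, 54 genes were called. Slides 1, 2 and 3 each held 1 gonad array, and within every slide 408 of the 409 held higher and 149 of the 150 held lower genes kept their sign. The genes had been chosen on these same arrays, so this agreement was largely set in advance and is not separate support.

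Gonad had the highest mean of the 7 organs for 319 of the 409 held higher genes. For these the second organ was liver in 107 genes, kidney in 65, lung in 44, tail in 42, skin in 33 and heart in 28. Over all genes tested, the gonad arrays lay above all 15 others for 160 genes and below all of them for 32. For 120 of the held higher and 22 of the held lower genes the gonad arrays did not overlap the 15 others. The largest differences among those are described with the groups to which they belong.

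**Figure D2:**
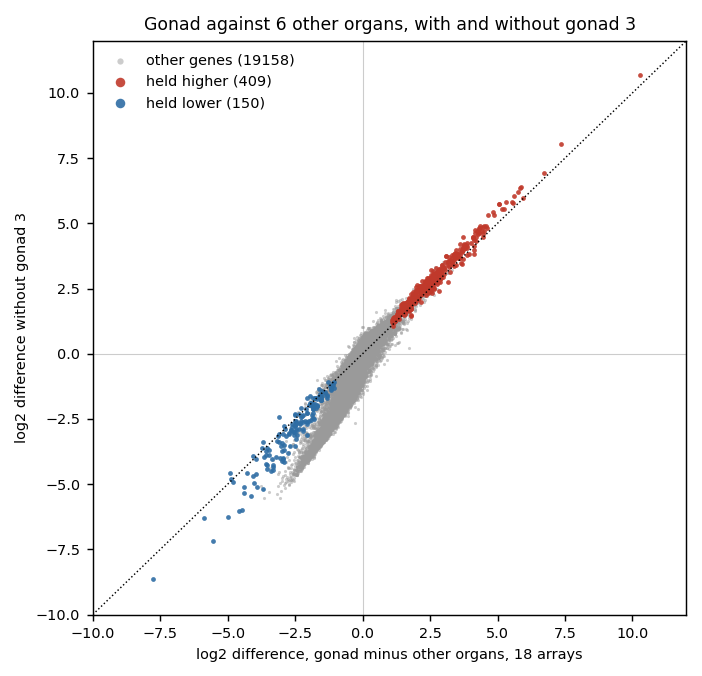
Log2 difference, gonad minus the other organs, of 19717 genes with all 18 arrays (x axis) and without gonad 3 (y axis). Red points are the 409 held higher genes, blue points the 150 held lower genes, and grey points all others; the mass of grey points that lies further down than across is the set lower only without gonad 3.

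Regulators of gonad formation were tested as a list of 26 transcription factors and related genes, of which 5 were called higher and 1 lower. All 5 held and were called again on the 13 arrays, and Nr5a1, Gata4, Wt1 and Sox8 were among them. Without gonad 1, gonad 2 or heart 1 the list gave 5, 5 and 9 higher and 1, 1 and 2 lower calls, in that order. The zinc finger factor Wt1 had levels of 4.50, 4.35 and 3.22 in gonad, against -6.52 to 5.59 (median -1.36) elsewhere, and the liver mean was 4.04, against a gonad mean of 4.02. Its difference was 4.45 ± 0.55 log2 units (adjusted p = 0.000448). Sox8, an SRY-related factor of Sertoli cells, was fainter, at -0.65, -1.58 and -2.02 in gonad, against -7.35 to -3.45 (median -4.48) elsewhere, but did not overlap, and differed by at least 8.04-fold (adjusted p = 0.000213).

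The factors that separate testis from ovary did not pass. Sox9, which drives Sertoli cell fate, had levels of 1.02, 0.87 and 0.12 in gonad, against -1.88 to 3.58 (median -0.17) elsewhere. Dmrt1, which maintains it in adults, had -2.17, -2.27 and -1.96 in gonad, against -3.01 to -1.28 (median -2.19) elsewhere. Foxl2, which maintains granulosa cells, was bright in every organ, at 5.68, 5.69 and 3.92 in gonad, against 2.59 to 6.13 (median 5.65) elsewhere. Whether this probe reads Foxl2 alone was not tested. All 3 genes overlapped fully. Lhx9, a homeobox factor of the genital ridge, had levels of 0.90, 0.62 and 0.48 in gonad, all above the -6.53 to -0.08 (median -2.64) elsewhere, but an adjusted p of 0.0843. On the 13 arrays limma called it higher, at a log2 difference of 2.855 (adjusted p = 3.12e-05). The single lower member was Irx3, an Iroquois homeobox factor, at -4.89, -3.74 and -3.24 in gonad, against -3.68 to 1.82 (median -2.07) elsewhere, a difference of -2.72 ± 0.34 log2 units (adjusted p = 0.000466).

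Of 5 sex-linked genes 0 were called, and limma gave 0 of them an unadjusted p under 0.05. Ddx3y and Eif2s3y, both Y-linked, were well above background on all gonad arrays, at 2.77, 2.38 and 1.54 for Ddx3y, against -1.07 to 2.50 (median 2.04) elsewhere, and at 2.93, 2.44 and 2.07 for Eif2s3y, against -0.08 to 3.02 (median 2.29) elsewhere. Xist, the RNA that coats the inactive X chromosome of female cells, was not well above background on any gonad array and on 2 of the 15 others.

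Genes of supporting cells formed the next group, with 10 of 28 called higher and 0 lower, against 2.13% higher and 0.811% lower over all genes. All 10 held without gonad 3 and were called on the 13 arrays. Higher calls numbered 5, 5 and 13, and lower calls 0, 0 and 1, without gonad 1, gonad 2 and heart 1 in turn. Aard, an alanine and arginine rich protein of Sertoli cells, showed the largest higher difference of the genes described here, with levels of 3.88, 2.49 and 1.11 in gonad, against -7.13 to -2.13 (median -4.34) elsewhere, and differed by at least 110.2-fold (adjusted p = 4.07e-05). Cldn11, the claudin of the blood-testis barrier, had 1.96, 0.42 and -0.30 in gonad, against -6.92 to -2.25 (median -5.01) elsewhere, a difference of at least 33.6-fold (adjusted p = 0.000235). Neither gene overlapped with any other array. Dhh, the hedgehog ligand that Sertoli cells secrete, had 3.50, 2.69 and 1.34 in gonad, against -3.42 to 2.23 (median -2.45) elsewhere, and differed by 4.16 ± 0.51 log2 units (adjusted p = 0.00043), with liver arrays inside the gonad range. Rspo1, a secreted activator of Wnt signalling needed for ovary formation, had 3.34, 2.70 and 1.97 in gonad, against -2.87 to 3.40 (median -1.25) elsewhere, and differed by 2.67 ± 0.34 log2 units (adjusted p = 0.000483), with a liver mean of 2.70.

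The other 6 supporting-cell genes were Amhr2, given above, and Ptgds, Kitl, Clu, Vnn1 and Inha. Inha, the alpha subunit of inhibin, had levels of 0.38, -0.31 and -0.95 in gonad, against -2.40 to -0.69 (median -1.73) elsewhere, a difference of 1.43 ± 0.29 log2 units (adjusted p = 0.0143) that was not called with quantile normalization, with or without normexp. Kitl, the ligand of the Kit receptor on germ cells, had 3.00, 2.51 and 2.33 in gonad, against -3.71 to 3.09 (median 0.76) elsewhere, and differed by 2.37 ± 0.49 log2 units (adjusted p = 0.0152). Neither Amh nor Fshr, also on the list, was well above background on gonad 1 or gonad 2. Amh had levels of -6.47, -7.14 and -3.64 in gonad, against -7.57 to -2.67 (median -6.18) elsewhere, and Fshr, the receptor of follicle-stimulating hormone, had -7.33, -7.26 and -3.92 in gonad, against -7.42 to -2.50 (median -5.46) elsewhere. The calls of Inha and Kitl were lost without gonad 1 or 2 (adjusted p of 0.094 to 0.199).

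Of 23 steroidogenic genes 4 were called higher and 0 lower, all 4 held, and 2 of them, Cyp11a1 and Star, act at the first step of the pathway. The counts were 2, 2 and 8 higher and 0 lower when gonad 1, gonad 2 or heart 1, in that order, was left out. Cyp11a1, which cleaves the cholesterol side chain, had levels of -3.14, -0.68 and -1.42 in gonad, against -7.64 to -2.25 (median -6.20) elsewhere, with 2 of 15 other arrays above background and a difference of at least 6.83-fold (adjusted p = 0.000633). Star, which brings cholesterol into the mitochondrion, had 0.26, 0.39 and -1.31 in gonad, against -5.45 to -1.09 (median -2.64) elsewhere, and differed by 2.73 ± 0.67 log2 units (adjusted p = 0.0444). Fdxr, the reductase that feeds electrons to mitochondrial P450 enzymes, had 4.64, 4.44 and 3.70 in gonad, against 1.88 to 3.87 (median 2.73) elsewhere, and differed by 1.49 ± 0.30 log2 units (adjusted p = 0.0141). The fourth was Cyp11b1, an 11-beta-hydroxylase, at -1.38, -0.25 and -0.99 in gonad, against -7.19 to -1.69 (median -4.11) elsewhere, a difference of at least 6.97-fold (adjusted p = 0.00284). Neither Cyp17a1 nor Hsd17b3, enzymes of androgen synthesis, passed. Cyp17a1 had 1.34, 0.74 and 2.23 in gonad, against 0.23 to 1.61 (median 0.80) elsewhere, and Hsd17b3 was faint, at -2.90, -4.59 and -3.07 in gonad, against -7.66 to -3.02 (median -6.29) elsewhere. The 22 genes of cholesterol synthesis gave 0 calls, with an unadjusted limma p under 0.05 for 2. Star was not called without gonad 1 or 2, heart 2, kidney 1 or 2, liver 2 or 3, lung 1 or 3, skin 1 or 2 or tail 1 or 3 (adjusted p of 0.0529 to 0.314). For Fdxr the call ended when gonad 1 or 2 was left out (adjusted p of 0.133 to 0.167).

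Among 15 sex hormone and nuclear hormone receptors 2 were called higher and 0 lower, against 2.13% higher and 0.811% lower over all genes. With gonad 1, gonad 2 or heart 1 left out, in that order, the list gave 0, 0 and 3 higher and 0 lower calls. Thrb, a thyroid hormone receptor, differed by 1.28 ± 0.22 log2 units (adjusted p = 0.00539), lost its call on the 13 arrays, and was not called with quantile normalization, with or without normexp. Esr1, an oestrogen receptor, had -4.20, -4.26 and -1.81 in gonad, against -4.66 to -1.07 (median -3.01) elsewhere. Mrap, an accessory protein of melanocortin receptors, was chosen after its values were seen and had 3.17, 3.32 and 2.64 in gonad, all above the -1.35 to 1.45 (median 0.53) elsewhere, with a difference of 2.65 ± 0.23 log2 units (adjusted p = 4.07e-05). Thrb lost its call without gonad 1 or 2 (adjusted p of 0.0615 to 0.0669).

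Of 20 germ cell markers 0 were called in either direction with all arrays, and limma gave 3 of them an unadjusted p under 0.05, against 2114 of all genes. The RNA helicase Ddx4 had levels of -4.44, -5.06 and -3.82 in gonad, against -6.62 to 1.16 (median -4.08) elsewhere. Dazl, an RNA-binding protein of germ cells, was not above background on any gonad array. The log2 of the summed level of the 20 markers was 1.25, 0.82 and 2.35 in gonad, against 0.51 to 3.02 (median 1.33) elsewhere. Tex14, a protein of the bridges between germ cells, was the only marker called on the 13 arrays, at -0.38, -1.40 and -0.80 in gonad, against -6.79 to -0.84 (median -4.85) elsewhere, and had an adjusted p of 0.0656 with all arrays.

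The promoters of 2 gonad-enriched genes carry the letters of the binding sequence of Nr5a1 and are shown because that factor itself was higher. Each runs from 250 bases before to 50 bases after the gene's start, from RefSeq on GRCm38.p6, with the letters CAAGGTCA in capitals on whichever strand they occur. Amhr2 lies on chromosome 15 (chr15:102445117-102445416, plus strand), and Dner, a Notch-like membrane protein, on chromosome 1 (chr1:84696172-84696471, minus strand).
Amhr2: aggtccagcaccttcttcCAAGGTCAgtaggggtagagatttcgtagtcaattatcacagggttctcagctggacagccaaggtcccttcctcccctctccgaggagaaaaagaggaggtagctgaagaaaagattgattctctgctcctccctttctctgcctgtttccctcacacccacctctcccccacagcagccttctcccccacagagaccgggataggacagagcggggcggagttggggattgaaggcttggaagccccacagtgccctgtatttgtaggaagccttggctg
Dner: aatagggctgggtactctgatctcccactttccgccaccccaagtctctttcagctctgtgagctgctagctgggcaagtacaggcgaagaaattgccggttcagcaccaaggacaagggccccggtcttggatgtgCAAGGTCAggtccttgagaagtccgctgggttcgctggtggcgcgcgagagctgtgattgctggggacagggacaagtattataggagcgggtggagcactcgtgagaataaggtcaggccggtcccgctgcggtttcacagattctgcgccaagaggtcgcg
The letters occurred in 8 of 301 held higher genes with a promoter sequence (2.66%), against 1.5% of 15622 tested genes with one and 1.56% of all 32851 promoters. The GATA sequence AGATAAG occurred in 14 of the 301 (4.65%), against 2.99% of tested genes and 3.04% of all promoters. Either strand was counted, neither sequence contains the other, and a match says only that the letters are present. Dner itself had levels of 1.39, 1.02 and 0.62 in gonad, against -6.70 to -2.86 (median -4.00) elsewhere, did not overlap, and differed by at least 40.0-fold (adjusted p = 3.83e-05).

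Several of the largest differences belonged to genes outside these lists. Acsbg1, an acyl-CoA synthetase of brain and testis, had levels of 3.83, 4.81 and 3.65 in gonad, against -5.45 to 1.30 (median -3.72) elsewhere, a difference of at least 103-fold (adjusted p = 7.72e-05). Prss35, a serine protease-like protein known from the ovary, had 3.42, 3.05 and 3.17 in gonad, against -4.96 to 0.97 (median -3.11) elsewhere, a difference of 5.96 ± 0.49 log2 units (adjusted p = 3.83e-05). Tesc, a calcium-binding protein found in embryonic testis, had 5.25, 3.89 and 2.99 in gonad, against -4.21 to 1.17 (median -2.34) elsewhere, a difference of 5.85 ± 0.61 log2 units (adjusted p = 0.000151). For these 3 genes the lowest gonad array lay above the highest of the other 15.

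Others of the same rank had varied roles. Efhd1, a calcium-binding protein of mitochondria, differed by at least 34.4-fold (adjusted p = 7.52e-05), and Clic5, a chloride channel protein linked to the actin cortex, by at least 43-fold (adjusted p = 0.000265). Trpc6, a calcium-permeable channel, had 2.45, 2.30 and 1.66 in gonad, against -7.38 to 1.57 (median -2.04) elsewhere, and differed by 4.60 ± 0.86 log2 units (adjusted p = 0.00835). Chchd10, a mitochondrial protein, differed by 4.57 ± 0.43 log2 units (adjusted p = 6.19e-05). Insc, an adaptor that orients cell division, differed by at least 19.1-fold (adjusted p = 3.83e-05), and Akr1c14, a 3-alpha-hydroxysteroid dehydrogenase, by 4.31 ± 0.40 log2 units (adjusted p = 6.08e-05). None of these genes overlapped between gonad and other arrays. The call of Trpc6 was lost without gonad 1 or 2 (adjusted p of 0.0691 to 0.0764).

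Contractile genes were the list with the most calls. Of 28 genes 14 were higher and 0 lower, against 2.13% higher over all genes, and the median log2 difference of the list was 1.83. All 14 held, and 17 were called on the 13 arrays. Omitting gonad 1, gonad 2 or heart 1 gave 5, 5 and 19 higher and 0 lower, in that order. Casq2, the calcium store protein of cardiac and smooth muscle, had levels of 3.32, 2.81 and 1.79 in gonad, against -5.81 to 0.18 (median -3.0) elsewhere, and differed by 5.61 ± 0.78 log2 units (adjusted p = 0.00105). Actc1, cardiac alpha-actin, had 1.22, 1.12 and -0.22 in gonad, against -7.04 to -0.06 (median -3.45) elsewhere, and differed by at least 15.1-fold (adjusted p = 0.000174). Mylk, the kinase that activates smooth muscle myosin, had 5.19, 5.04 and 4.32 in gonad, against -2.20 to 4.54 (median 1.98) elsewhere, and differed by 3.44 ± 0.30 log2 units (adjusted p = 3.83e-05). Myh11, smooth muscle myosin, had 3.69, 4.12 and 3.06 in gonad, against -3.93 to 4.39 (median -0.53) elsewhere, and differed by 3.29 ± 0.44 log2 units (adjusted p = 0.000856). Only Casq2 of these 4 was free of overlap, and liver arrays gave the top of the other range for Mylk and Myh11.

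The 14 also included Des, Mrvi1, Kcnmb1, Actg2, Pdlim3, Cnn1, Itga7, Nexn and Ldb3, with log2 differences of 1.76 to 2.87. Actg2, the enteric smooth muscle actin, had levels of 8.54, 8.45 and 7.97 in gonad, against 0.22 to 8.88 (median 6.45) elsewhere, with a liver mean of 8.56. Acta2 and Tagln, the genes most used to mark myofibroblasts, did not pass. Acta2 had 9.70, 9.69 and 9.35 in gonad, against 6.13 to 9.72 (median 9.16) elsewhere, and Tagln had 9.59, 9.55 and 9.17 in gonad, against 6.08 to 9.56 (median 9.11) elsewhere, so both were bright in every culture. Myocd, the smooth muscle co-activator, did not pass either, at -2.04, -0.73 and -2.23 in gonad, against -4.23 to -1.25 (median -2.78) elsewhere. Ldb3 was not called without gonad 1 or 2 or skin 2 (adjusted p of 0.053 to 0.243). For Des and Actg2 the calls ended when gonad 1 or 2 was left out (adjusted p of 0.0561 to 0.159).

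The CArG box, to which serum response factor binds in muscle genes, was searched in the same promoter windows. It occurred in 3 of 21 contractile genes with a promoter sequence (14.3%) and in 12 of the 301 held higher genes (3.99%), against 1.74% of tested genes and 1.63% of all promoters. Matches are in capitals in the promoters below. Actc1 lies on chromosome 2 (chr2:114052826-114053125, minus strand), and Ldb3, a Z-disc protein, on chromosome 14 (chr14:34588632-34588931, minus strand). Both belong to the contractile list, and the remaining contractile gene with a match was not held higher and is not shown. Trpc6, on chromosome 9 (chr9:8543892-8544191, plus strand), is a held higher gene outside the contractile list.
Actc1: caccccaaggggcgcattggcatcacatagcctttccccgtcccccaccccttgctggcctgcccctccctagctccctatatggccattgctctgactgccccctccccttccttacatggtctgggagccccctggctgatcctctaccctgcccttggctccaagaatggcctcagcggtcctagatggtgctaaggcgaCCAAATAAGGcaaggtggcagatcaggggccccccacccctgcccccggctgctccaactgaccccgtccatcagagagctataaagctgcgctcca
Ldb3: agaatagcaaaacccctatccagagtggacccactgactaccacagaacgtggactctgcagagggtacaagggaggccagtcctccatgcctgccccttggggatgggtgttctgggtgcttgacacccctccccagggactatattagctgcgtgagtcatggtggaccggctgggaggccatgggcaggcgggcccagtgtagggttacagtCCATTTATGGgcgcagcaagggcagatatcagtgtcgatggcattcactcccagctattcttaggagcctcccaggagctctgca
Trpc6: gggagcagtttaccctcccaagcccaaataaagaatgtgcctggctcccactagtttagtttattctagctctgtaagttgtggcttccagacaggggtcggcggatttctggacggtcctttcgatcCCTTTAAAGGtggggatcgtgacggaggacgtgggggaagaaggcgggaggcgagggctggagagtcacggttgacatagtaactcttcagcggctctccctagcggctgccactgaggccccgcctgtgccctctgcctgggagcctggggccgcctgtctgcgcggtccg

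Vessel markers were also called in the higher direction. Of 18 endothelial genes 7 were called higher and 0 lower, all 7 held, and 7 were called on the 13 arrays, where Egfl7 was lost and Tie1 gained. Without gonad 1, gonad 2 or heart 1 the list gave 7, 3 and 8 higher and 0 lower calls, in that order. Cdh5, the cadherin of endothelial junctions, had levels of 1.6, 2.25 and 1.96 in gonad, against -4.87 to 2.96 (median -2.73) elsewhere, and differed by 4.14 ± 0.56 log2 units (adjusted p = 0.000856). Plvap, a protein of fenestrated endothelium, had 2.24, 4.86 and 4.07 in gonad, against -3.29 to 5.58 (median -0.22) elsewhere, and differed by 3.65 ± 0.54 log2 units (adjusted p = 0.00173), with a liver mean of 4.28. Flt1, a receptor of vascular endothelial growth factor, differed by 2.62 ± 0.30 log2 units (adjusted p = 0.000248). The log2 of the summed level of the 18 markers was 6.14, 7.96 and 7.07 in gonad, against 4.14 to 8.69 (median 5.08) elsewhere, with liver 2 highest. Pecam1 and Vwf, which mark all or most endothelium, were well above background on every gonad array but did not pass, at -1.09, 1.04 and -0.07 for Pecam1 in gonad, against -2.43 to 1.35 (median -1.39) elsewhere. The part of endothelial cells in the contractile result was not tested.

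Pericyte genes gave 2 higher and 1 lower of 12, against 2.13% higher and 0.811% lower over all genes. Higher calls numbered 2, 1 and 2, and lower calls 0, 0 and 1, without gonad 1, gonad 2 and heart 1 in turn. Cspg4, the NG2 proteoglycan, had levels of 4.38, 4.71 and 3.61 in gonad, against -1.76 to 3.59 (median 2.18) elsewhere, and differed by 2.46 ± 0.34 log2 units (adjusted p = 0.0011). Gja4, a connexin of vessel walls, differed by 2.75 ± 0.47 log2 units (adjusted p = 0.0046), while Anpep, an aminopeptidase, was lower, at -1.54 ± 0.35 log2 units (adjusted p = 0.0288). The log2 of their summed level was 6.16, 6.41 and 5.85 in gonad, against 4.01 to 6.47 (median 5.91) elsewhere. Heyl, a Notch target of mural cells and the single call among the Notch genes, had 1.54, 1.21 and 0.97 in gonad, against -7.20 to 1.30 (median -1.91) elsewhere, a difference of at least 9.49-fold (adjusted p = 0.00551). Gja4 lost its call without gonad 2 (adjusted p = 0.0658). The call of Anpep was lost without gonad 1 or 2, kidney 1, lung 3, skin 1 or 2 or tail 1 or 3 (adjusted p of 0.0502 to 0.309). Heyl was not called without gonad 1 (adjusted p = 0.0616).

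**Figure D3:**
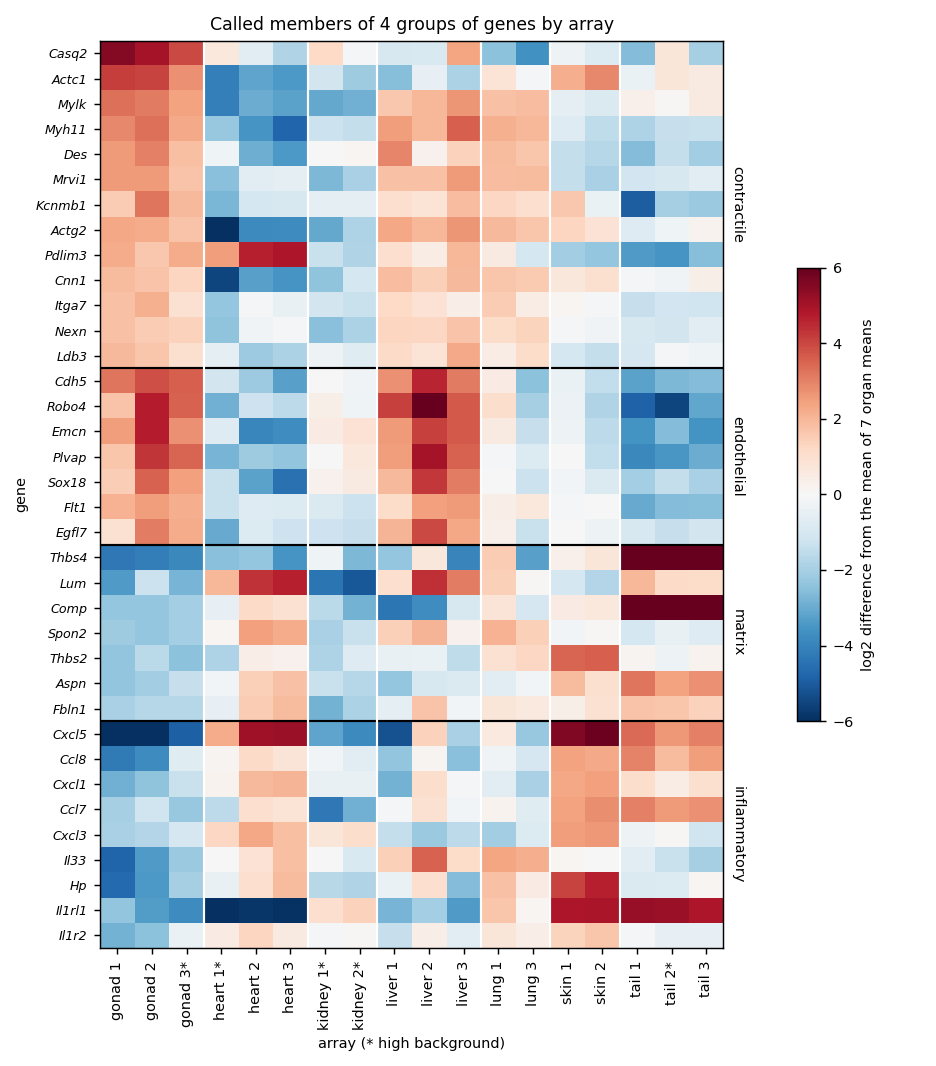
Levels of contractile and endothelial genes called higher and of matrix and inflammatory genes called lower (rows) on the 18 arrays (columns, gonad at the left), as log2 difference from the mean of the 7 organ means of the gene. For contractile genes 1 called member is not shown. Asterisks mark the 5 arrays with a high background. Colours end at 6 and -6. The upper 2 blocks are red in gonad and, in part, in liver. The contractile block is also red in part in lung. The lower 2 blocks are blue in gonad.

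Basement membrane genes differed in single chains. Lama1, a laminin alpha chain that is abundant in embryos and in the testis, had levels of 5.71, 5.58 and 4.69 in gonad, against -3.17 to 3.06 (median -0.25) elsewhere, did not overlap, and differed by 5.24 ± 0.35 log2 units (adjusted p = 6.7e-06). The other laminin chain called was Lamb3, which was lower, at -2.48 ± 0.56 log2 units (adjusted p = 0.0262). Type IV collagen chains went the same way as Lama1 in part. Col4a3 had 0.17, -1.37 and -1.86 in gonad, against -7.73 to -0.84 (median -6.44) elsewhere, a difference of at least 9.48-fold (adjusted p = 0.0138), and its neighbour Col4a4 had 1.41, 0.52 and 0.50 in gonad, against -4.57 to 1.54 (median -2.19) elsewhere, a difference of 2.37 ± 0.56 log2 units (adjusted p = 0.0346). Kidney means exceeded the gonad means for both, at -0.95 for Col4a3 and 1.27 for Col4a4. Col4a6 differed by 1.21 ± 0.28 log2 units (adjusted p = 0.0306), while Col4a5, Col4a1 and Col4a2 did not pass with all arrays, at log2 differences of 1.67, 1.67 and 1.47, and were called on the 13 arrays. Col15a1, a collagen next to vessels and muscle, had 1.25, 1.35 and 2.68 in gonad, against -3.23 to 1.1 (median -0.69) elsewhere, and Col11a1, a fibril-forming collagen, had 3.39, 3.31 and 3.41 in gonad, against -1.04 to 3.14 (median -0.26) elsewhere. Both were without overlap, with differences of 2.85 ± 0.46 log2 units (adjusted p = 0.00323) for Col15a1 and 2.97 ± 0.45 log2 units (adjusted p = 0.00189) for Col11a1. For Lamb3 the call ended when gonad 1 or 2 or skin 2 was left out (adjusted p of 0.0507 to 0.262). Col4a3 lost its call without gonad 1 or 2 (adjusted p of 0.0742 to 0.161). The call of Col4a4 was lost without gonad 1 or 2, kidney 1 or 2, liver 2, lung 1 or 3, skin 2 or tail 1 or 3 (adjusted p of 0.0532 to 0.297). Col4a6 was not called without gonad 1 or 2, kidney 1, lung 3 or skin 1 or 2 (adjusted p of 0.058 to 0.274).

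The interstitial matrix went the other way. Of 34 proteoglycans and glycoproteins of the matrix 1 was higher and 7 were lower, against 0.811% lower over all genes, with 14 lower on the 13 arrays and a median log2 difference of -1.12. The counts were 0, 0 and 1 higher and 0, 1 and 13 lower when gonad 1, gonad 2 or heart 1, in that order, was left out. Thbs4, a thrombospondin of tendon and muscle, was not above background on any gonad array, at -7.22, -7.09 and -6.81, against -6.89 to 7.81 (median -3.16) elsewhere, with tail highest, and was called lower (adjusted p = 0.00882). Lum, a small leucine-rich proteoglycan of collagen fibrils, had -3.11, -1.0 and -2.47 in gonad, against -4.78 to 4.98 (median 1.48) elsewhere, and differed by -2.92 ± 0.67 log2 units (adjusted p = 0.031), with kidney lower still at a mean of -4.44. Comp, a cartilage and tendon matrix protein, had -1.48, -1.47 and -1.19 in gonad, against -3.48 to 7.73 (median 1.32) elsewhere, and differed by -2.60 ± 0.59 log2 units (adjusted p = 0.0273), with liver lower still at a mean of -2.15. Spon2, a secreted matrix protein, had 0.57, 0.36 and 0.66 in gonad, against 0.74 to 5.13 (median 2.80) elsewhere, without overlap, and differed by -2.52 ± 0.45 log2 units (adjusted p = 0.00584). Thbs2, Aspn and Fbln1 were the other lower members, and Smoc1, a basement membrane glycoprotein, was the higher one at 2.31 ± 0.52 log2 units (adjusted p = 0.0268), with a gonad mean of 3.35, against a lung mean of 3.71. Dcn did not pass with all arrays, at 3.81, 5.10 and 3.82 in gonad, against 0.10 to 8.22 (median 6.68) elsewhere. On the 13 arrays limma called it lower, at a log2 difference of -2.44 (adjusted p = 0.00219). For Thbs4 and Spon2 the calls ended when gonad 1 or 2 was left out (adjusted p of 0.0500 to 0.0747). Lum lost its call without gonad 1 or 2, kidney 1, lung 1, skin 1 or 2 or tail 1 (adjusted p of 0.0501 to 0.296). The call of Comp was lost without gonad 1 or 2, kidney 1 or skin 2 (adjusted p of 0.0512 to 0.184). Smoc1 was not called without gonad 1 or 2, kidney 2 or skin 1 (adjusted p of 0.0500 to 0.246).

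The fibrillar collagens Col1a1, Col1a2 and Col3a1 were not called, and Col14a1, a fibril-associated collagen, was lower with a difference of -3.13 ± 0.46 log2 units (adjusted p = 0.00166), at -0.83, -0.25 and -0.51 in gonad, against -1.90 to 5.38 (median 3.98) elsewhere, where the kidney mean was -1.63. Over the 34 collagens 5 were higher and 3 lower, and 2 of the 3 lower calls held. With gonad 1, gonad 2 or heart 1 left out, in that order, the list gave 2, 2 and 9 higher and 1, 1 and 4 lower calls. Matrix-degrading enzymes gave 1 higher and 3 lower of 36, against 2.13% higher and 0.811% lower over all genes. Omitting gonad 1, gonad 2 or heart 1 gave 1, 1 and 3 higher and 1, 1 and 3 lower, in that order. Mmp3, or stromelysin-1, had levels of -6.07, -2.51 and -3.05 in gonad, against -2.01 to 4.97 (median 2.42) elsewhere, without overlap, and differed by -5.89 ± 0.93 log2 units (adjusted p = 0.00252). Mmp11, or stromelysin-3, had 5.53, 6.0 and 5.42 in gonad, against 0.51 to 4.48 (median 3.41) elsewhere, also without overlap but in the other direction, and differed by 2.57 ± 0.36 log2 units (adjusted p = 0.00115). Adamts15, a protease of versican, was lower, at -3.68 ± 0.85 log2 units (adjusted p = 0.0309), and in gonad was well above background on gonad 3 alone, while Mmp3 was so on gonad 2 and gonad 3. For Adamts15 the call ended when gonad 1 or 2, kidney 1 or 2, lung 3, skin 1 or 2 or tail 3 was left out (adjusted p of 0.0522 to 0.326).

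Inflammatory genes were called mostly in the lower direction. Of 29 chemokines 3 were higher and 5 lower, against 2.13% higher and 0.811% lower over all genes. All 3 higher calls and 4 of the 5 lower ones held. Without gonad 1, gonad 2 or heart 1 the list gave 3, 3 and 4 higher and 1, 1 and 8 lower calls, in that order. Cxcl5, a neutrophil attractant, had levels of -7.21, -6.45 and -4.19 in gonad, against -4.55 to 6.58 (median 2.91) elsewhere. It was well above background on 14 of the 15 other arrays and, in gonad, on gonad 3 alone, so its fitted difference of -7.76 ± 1.06 log2 units (adjusted p = 0.000953) rests in part on values below background. Ccl8 and Cxcl1, which attract monocytes and neutrophils, were lower, with differences of -3.40 ± 0.65 log2 units (adjusted p = 0.0101) and -2.58 ± 0.63 log2 units (adjusted p = 0.043). In gonad Ccl8 too was well above background on gonad 3 alone. The higher chemokines were Cxcl14, Ccl17 and Cx3cl1. Ccl17, a ligand of the receptor Ccr4, had 3.87, 2.93 and 1.95 in gonad, against -3.25 to 1.14 (median -1.54) elsewhere, and its chromosomal neighbour Cx3cl1, or fractalkine, had 5.09, 5.04 and 4.57 in gonad, against 0.52 to 3.65 (median 3.07) elsewhere, neither with overlap. The differences were 4.30 ± 0.46 log2 units (adjusted p = 0.000182) for Ccl17 and 2.36 ± 0.34 log2 units (adjusted p = 0.00145) for Cx3cl1. Cxcl14 differed by 4.33 ± 0.51 log2 units (adjusted p = 0.000283), with 7.14, 6.52 and 5.78 in gonad, against a skin mean of 6.54. Ccl8 lost its call without gonad 1 or 2 (adjusted p of 0.121 to 0.138). The call of Cxcl1 was lost without gonad 1 or 2, heart 2 or 3, kidney 1 or 2, liver 3, lung 1 or 3, skin 1 or 2 or tail 1, 2 or 3 (adjusted p of 0.0526 to 0.345).

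Interleukin and inflammatory genes gave 0 higher and 4 lower of 29, with 9 lower and 1 higher on the 13 arrays. Higher calls numbered 0, and lower calls 2, 3 and 6, without gonad 1, gonad 2 and heart 1 in turn. Il33, an alarmin of stromal nuclei, was not above background on any gonad array, at -7.28, -5.92 and -4.73, against -4.48 to 1.04 (median -2.38) elsewhere, lower by at least 8.96-fold (adjusted p = 0.00112) in gonad, a call that was lost with quantile normalization, with or without normexp. Il1rl1, which encodes the Il33 receptor, had -2.81, -3.82 and -4.21 in gonad, against -7.06 to 4.76 (median 0.56) elsewhere, and was called lower with an adjusted p of 0.000126, although heart was lower, at a mean of -6.57. Hp, or haptoglobin, had -3.92, -2.70 and -1.25 in gonad, against -1.87 to 5.41 (median 0.87) elsewhere, and differed by -3.94 ± 0.68 log2 units (adjusted p = 0.00506). Il6 did not pass, at 2.40, 2.40 and 1.27 in gonad, against -1.49 to 4.72 (median 3.59) elsewhere. Hp was not called without gonad 1 (adjusted p = 0.0738).

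Interferon-stimulated genes gave 1 lower call of 20 with all arrays, Oas1a, at -4.86, -4.06 and -2.33 in gonad, against -2.09 to 6.05 (median 0.61) elsewhere, a difference of -4.40 ± 0.66 log2 units (adjusted p = 0.00184). On the 13 arrays 14 were lower and 0 higher, and without gonad 3 alone 9 were lower. The counts were 0 higher and 1, 1 and 8 lower when gonad 1, gonad 2 or heart 1, in that order, was left out. Heart had the highest mean of the 7 organs for all 20: Isg15, a ubiquitin-like protein, had 2.28, 1.89 and 2.92 in gonad, against 1.19 to 8.54 (median 3.12) elsewhere, with the top of the range in heart. The list's median log2 difference was -1.26. Complement genes gave 1 higher and 3 lower of 21, against 2.13% higher and 0.811% lower over all genes. With gonad 1, gonad 2 or heart 1 left out, in that order, the list gave 1, 1 and 2 higher and 0, 1 and 3 lower calls. C4b and Cfb, components of the classical and alternative pathways, were lower, with differences of -2.87 ± 0.55 log2 units (adjusted p = 0.00967) and -3.11 ± 0.58 log2 units (adjusted p = 0.00851), while Cd59a, an inhibitor of the membrane attack complex, had 4.19, 3.76 and 2.99 in gonad, against 0.28 to 2.23 (median 1.15) elsewhere, without overlap, and was higher by 2.60 ± 0.30 log2 units (adjusted p = 0.000271). The gonad mean of C4b was -1.23, against a kidney mean of -2.07. For C4b the call ended when gonad 1 or 2 was left out (adjusted p of 0.0608 to 0.0885). Cfb lost its call without gonad 1 (adjusted p = 0.113).

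Signalling genes differed in both directions. Of 38 BMP and activin genes 4 were higher and 1 lower, against 2.13% higher and 0.811% lower over all genes. Omitting gonad 1, gonad 2 or heart 1 gave 0, 0 and 8 higher and 0, 0 and 1 lower, in that order. Bmp4 had levels of 6.21, 6.29 and 5.67 in gonad, against 0.56 to 6.75 (median 4.34) elsewhere, a difference of 2.56 ± 0.52 log2 units (adjusted p = 0.0141), although a second, dim probe of the gene gave -0.65. Bmp2 differed by 1.53 ± 0.36 log2 units (adjusted p = 0.0317), and Grem1, a secreted BMP antagonist, by at least 4.33-fold (adjusted p = 0.00463). Grem1 had 5.35, 5.17 and 3.80 in gonad, against -6.54 to 7.22 (median 3.95) elsewhere, and its gonad mean of 4.77 lay below the means of lung at 7.22 and liver at 5.22. Of 36 Wnt genes 2 were higher and 3 lower, against the same shares over all genes. Without gonad 1, gonad 2 or heart 1 the list gave 1, 1 and 4 higher and 2, 2 and 4 lower calls, in that order. The Wnt activator Rspo3 had -3.65, -2.73 and -1.28 in gonad, against -2.44 to 4.42 (median 0.93) elsewhere, and was lower, at a difference of -3.58 ± 0.50 log2 units (adjusted p = 0.00107), opposite to its relative Rspo1. Dkk2, a Wnt antagonist, was lower, at a difference of -3.17 ± 0.49 log2 units (adjusted p = 0.00212). Its gonad mean of -2.48 was close to the heart mean of -2.46, and tail was highest at 5.23. Sfrp2, a secreted Frizzled-related protein, was higher by 3.32 ± 0.80 log2 units (adjusted p = 0.0389). It had 3.87, 3.34 and 3.04 in gonad, against a tail mean of 6.89. The calls of Bmp4 and Grem1 were lost without gonad 1 or 2 (adjusted p of 0.0599 to 0.12). Bmp2 was not called without gonad 1 or 2, kidney 2, lung 1 or 3, skin 2 or tail 1 or 3 (adjusted p of 0.0536 to 0.293). For Sfrp2 the call ended when gonad 1 or 2, kidney 1 or 2, lung 1 or 3, skin 1 or 2 or tail 1, 2 or 3 was left out (adjusted p of 0.0607 to 0.269).

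Retinoic acid, which controls the entry of germ cells into meiosis, had 2 higher and 2 lower genes of 19. Over all genes 2.13% were higher and 0.811% lower. Higher calls numbered 1, 1 and 2, and lower calls 0, 1 and 2, without gonad 1, gonad 2 and heart 1 in turn. Aldh1a1, which makes retinoic acid, had levels of 8.01, 7.37 and 6.56 in gonad, against -1.07 to 7.06 (median 4.11) elsewhere, and differed by 4.51 ± 0.52 log2 units (adjusted p = 0.000252). Cyp26b1, which degrades retinoic acid and is expressed in the fetal testis, had 5.61, 5.71 and 4.21 in gonad, against 0.92 to 5.45 (median 3.36) elsewhere, and differed by 2.11 ± 0.49 log2 units (adjusted p = 0.0317). The binding proteins Crabp1 and Rbp4 were lower, with a difference of -2.93 ± 0.52 log2 units (adjusted p = 0.00574) for Crabp1, whose liver mean of -4.11 lay below its gonad mean of -3.32. In the hedgehog list of 13 the ligand Dhh was higher while 2 surface binding proteins of hedgehog ligands, Hhip and Gas1, were lower. The counts were 1, 1 and 1 higher and 0, 0 and 2 lower when gonad 1, gonad 2 or heart 1, in that order, was left out. Hhip had -7.20, -7.04 and -4.29 in gonad, well above background on gonad 3 alone, against -6.84 to 0.37 (median -2.83) elsewhere, and Gas1 differed by -1.39 log2 units (adjusted p = 0.04999). Gli1 and Ptch1, targets of the pathway, did not pass, with Gli1 at -0.79, -1.14 and -0.75 in gonad, against -3.93 to 0.10 (median -1.89) elsewhere. Cyp26b1 lost its call without gonad 1 or 2, kidney 1, lung 3, skin 1 or 2 or tail 2 or 3 (adjusted p of 0.0516 to 0.271). The calls of Crabp1 and Hhip were lost without gonad 1 or 2 (adjusted p of 0.079 to 0.219). Gas1 was not called without gonad 1 or 2, heart 2 or 3, kidney 1 or 2, liver 2 or 3, lung 1 or 3, skin 1 or 2 or tail 1, 2 or 3 (adjusted p of 0.0501 to 0.41).

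Of 34 growth factor genes 5 were higher and 2 lower, against 2.13% higher and 0.811% lower over all genes. With gonad 1, gonad 2 or heart 1 left out, in that order, the list gave 1, 2 and 7 higher and 1, 1 and 4 lower calls. Igf1 had levels of 4.47, 3.83 and 3.42 in gonad, against -0.63 to 3.78 (median 1.54) elsewhere, and differed by 2.20 ± 0.39 log2 units (adjusted p = 0.00595). Igfbp2, which binds insulin-like growth factors, had 7.74, 6.51 and 5.80 in gonad, against 0.24 to 6.63 (median 2.65) elsewhere, and differed by 3.75 ± 0.65 log2 units (adjusted p = 0.00519). Igfbp4, another such protein, was lower, at -2.93, -2.03 and -0.25 in gonad, against -0.77 to 5.90 (median 1.12) elsewhere, a difference of -3.20 ± 0.51 log2 units (adjusted p = 0.00292). Imprinted growth genes gave 4 higher and 1 lower of 16, against the same shares over all genes. Mest had 3.50, 2.89 and 1.80 in gonad, against -2.28 to 2.47 (median -0.89) elsewhere, a difference of 3.06 ± 0.38 log2 units (adjusted p = 0.000446), and Grb10, an adaptor that restrains insulin signalling, had 3.66, 3.45 and 4.41 in gonad, against 1.00 to 3.27 (median 1.82) elsewhere, without overlap, a difference of 1.77 ± 0.26 log2 units (adjusted p = 0.0016). Plagl1, a zinc finger factor, differed by 2.95 ± 0.47 log2 units (adjusted p = 0.00284), but its probes ranged from 0.36 to 2.96. Igf2 was not above background on gonad 1 or gonad 2. For Igf1 and Igfbp2 the calls ended when gonad 1 was left out (adjusted p of 0.0742 to 0.086).

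Hox genes record the position of a tissue along the body axis, and 8 of 36 were higher in gonad with 0 lower, against 2.13% higher and 0.811% lower over all genes. Omitting gonad 1, gonad 2 or heart 1 gave 2, 2 and 12 higher and 0, 0 and 1 lower, in that order. The called genes were Hoxd9, Hoxd10, Hoxd4 and Hoxd8 of the D cluster and Hoxc6, Hoxc9, Hoxc4 and Hoxc13 of the C cluster. Hoxd8 had levels of 2.22, 2.10 and 1.02 in gonad, against -5.51 to 0.55 (median -1.64) elsewhere, and differed by 3.88 ± 0.50 log2 units (adjusted p = 0.000557). Hoxd9 had 1.08, 1.31 and 0.37 in gonad, against -6.40 to -0.62 (median -3.18) elsewhere, and differed by at least 18-fold (adjusted p = 0.0102). Hoxd10 had 1.41, 1.14 and 0.46 in gonad, against -6.56 to -0.19 (median -2.85) elsewhere, and differed by 4.22 ± 0.94 log2 units (adjusted p = 0.0251). These 3 adjacent genes did not overlap with any other organ. Hoxd9 lost its call without gonad 1 or 2 (adjusted p of 0.0835 to 0.0927). The call of Hoxd10 was lost without gonad 1 or 2 or skin 2 (adjusted p of 0.0503 to 0.19).

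Other organs had higher means than gonad for some C cluster genes. Hoxc6 had levels of 4.27, 4.25 and 3.69 in gonad, against -6.44 to 4.66 (median 0.89) elsewhere, and the skin mean was 4.53. Its difference from the 6 organs was 3.60 ± 0.58 log2 units (adjusted p = 0.00306). Hoxc4 differed by 2.09 ± 0.39 log2 units (adjusted p = 0.00845), and Hoxc13 by 1.70 ± 0.43 log2 units (adjusted p = 0.049), which lost its call on the 13 arrays. The tail mean of Hoxc13 was 2.92, above -0.09, 0.32 and -0.38 on the gonad arrays. No member of the A or B cluster was called. Hoxa13 and Hoxd13, the most posterior members, did not pass, and neither was well above background on gonad 1 or gonad 2. Hoxb13 was bright in tail, with a mean of 6.14, and had -7.21, -5.79 and -3.18 in gonad. Of 19 regulators of the genital tract, Hoxd10 and Pax8, a paired-box factor of Müllerian and renal epithelium, were higher, Pax8 by at least 2.39-fold (adjusted p = 0.00199), with -1.51, -3.67 and -3.14 in gonad, against a kidney mean of -0.21. Hoxc4 was not called without gonad 1 or 2 (adjusted p of 0.0522 to 0.0938). For Hoxc13 the call ended when gonad 1 or 2, heart 2, kidney 1 or 2, liver 1 or 2, lung 1 or 3, skin 1 or 2 or tail 1, 2 or 3 was left out (adjusted p of 0.055 to 0.337).

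**Figure D4:**
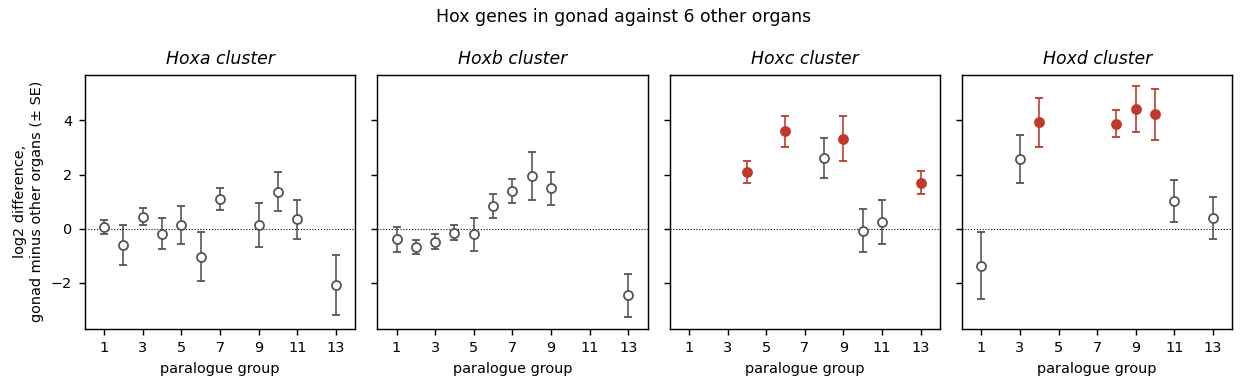
Log2 difference, gonad minus the other organs, of the 36 Hox genes tested (y axis) by paralogue group (x axis), 1 panel per cluster. Error bars are the SE of the fit, filled points are the 8 called genes and open points the others; all filled points lie above 0 in the C and D panels.

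Lists of markers of other cell types otherwise gave few calls, which compare organs and do not measure how many such cells were present. Mesothelial markers gave 2 higher of 13, Wt1, given above, and Gpm6a, a membrane glycoprotein, with 4 called on the 13 arrays, and the log2 of their summed level was 5.67, 6.22 and 5.21 in gonad, against 3.06 to 7.78 (median 5.83) elsewhere. Msln, the defining mesothelin gene, had levels of -0.14, 2.97 and 2.65 in gonad, against -4.25 to 5.05 (median -0.91) elsewhere. Epithelial markers gave 1 lower call of 14, macrophage markers 1 lower of 13, and 10 lymphocyte and 10 adipocyte markers 0, with unadjusted limma p under 0.05 for 0 and 3 of them. The log2 of the summed level of the macrophage markers was 5.298, 5.289 and 6.137 in gonad, against 3.405 to 6.606 (median 5.164) elsewhere. For the epithelial markers it was 2.604, 3.582 and 3.549 in gonad, against 0.266 to 7.16 (median 4.365) elsewhere. For the Schwann and glial markers it was 3.998, 2.752 and 2.741 in gonad, against 0.678 to 3.069 (median 1.743) elsewhere. Schwann and glial markers gave 1 higher of 9, S100b, a calcium-binding protein also present in other cells, at 3.69, 2.10 and 2.11 in gonad, against -3.53 to 2.83 (median -0.50) elsewhere, with a tail mean of 2.70. Cell cycle genes gave 0 calls of 23, 0 with an unadjusted limma p under 0.05 and with a median log2 difference of -0.15. S100b lost its call without gonad 1 (adjusted p = 0.148).

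**Figure D5:**
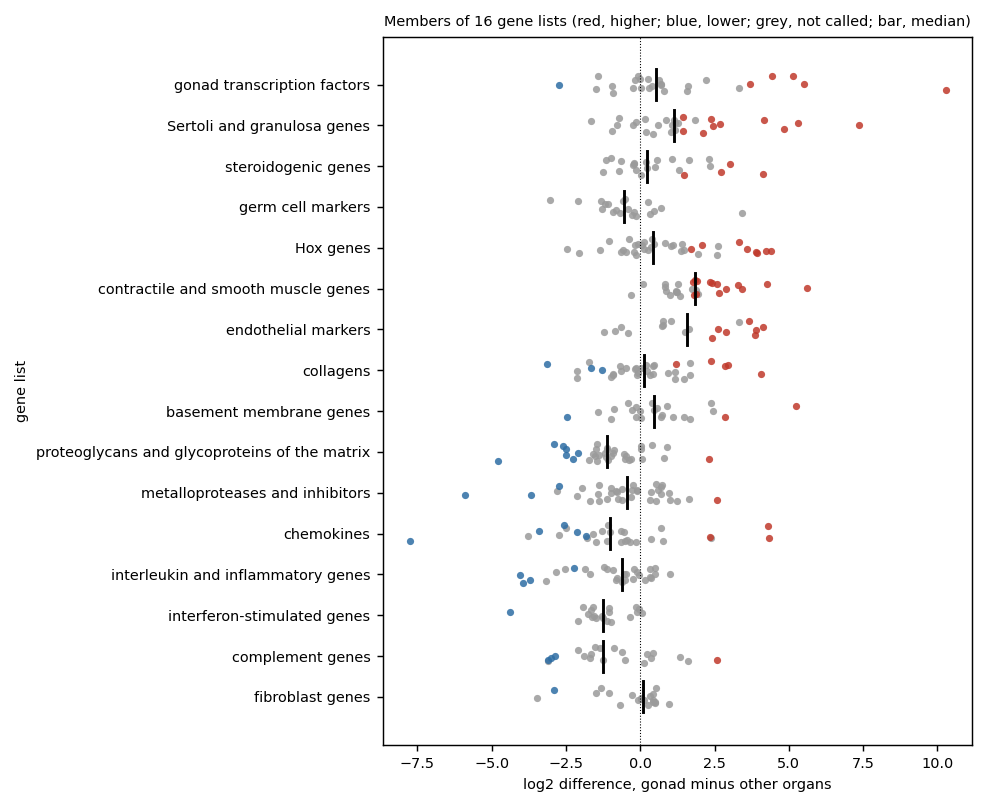
Log2 difference, gonad minus the other organs, of each tested member (points) of 16 gene lists (rows), with the list median as a bar. Red points are called higher, blue points called lower and grey points not called; the dotted line is 0. Contractile, supporting-cell and Hox rows hold red points and no blue ones, and the matrix and inflammatory rows have medians below 0.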

How the data were processed

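Per the file headers, the authors scanned 1-colour Agilent arrays of 62976 spots with Feature Extraction 11.0.1.1 on a design that names build mm9, 1 array per sample. The deposited intensity values used here were the processed signal, which is background-subtracted within the array and not normalized between arrays, and, for an alternative, the median spot and local background intensity. The deposited flags gave probes well above background, and spots flagged as outliers were left out, which removed 2023 probe values. Saturated spots were kept. The deposited value table holds the raw median spot intensity, equal to the scanner files on all 18 arrays, and adds lung replicate 2. Any further scaling of the deposited values is not given in the sources used here.

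Of 55681 biological probes 27235 were named through a RefSeq table of GRCm38.p6, giving 20660 genes. Each gene took its probe with the brightest mean among those measured on every array, 480 genes had no such probe, and 463 more were left out because the probe was well above background on fewer than 2 arrays, so that 19717 were tested. The processed intensity was turned to log2 and each array's 75th percentile subtracted. Organ means were fitted with limma 3.58.1 in R 4.3.3 (lmFit and eBayes, 11 residual degrees of freedom), and the contrast was gonad minus the unweighted mean of 6 organ means, with Benjamini-Hochberg adjustment over all genes. The fit was tested on simulated data made from these arrays. For an "at least N-fold" value only arrays of an organ with no array well above background for the probe were adjusted. Each of these took the higher of the probe's own signal and its lowest signal among probes well above background. A dim array in an organ with another array above background kept its own signal, so the value is not a strict bound where such arrays occur. The number of arrays, 3 against 15, limits the precision.

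Genes were named by rule: among held genes whose gonad arrays lay beyond all others, the 20 largest higher and 12 largest lower differences without clone names, the 4 largest called members of each of 38 gene lists, the 3 gonad markers, the Hox genes and the sex-linked genes. Other members are named as reference points, and some genes that the rule selects are not reported here. The organ, the lists and the rule were chosen with earlier results of these data known. Figures were drawn with Python 3.11.15, numpy 2.4.6, pandas 2.3.3 and matplotlib 3.10.9.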

Additional observations from a re-analysis of the deposited data

How the results depend on the processing

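Among 107 called genes named in the text, 0 changed direction under any of the alternatives run. The count of 579 calls became 212 without gonad 1 and 2516 without gonad 3, the lowest and highest of the 18 fits that left out 1 array, with 225 without gonad 2, 1133 without heart 1 and 428 to 603 for each of the others. Without the 5 arrays with a high background it was 4086 (20.1% higher), with normexp and quantile normalization on the same 13 arrays 1067 (60.9% higher), and with membership of the 5 arrays as a term 2449 (36.8% higher). Pooling the other organs as 1 group gave 54 (88.9% higher) and ended the call of 86 of the 107 named genes; a log2 minimum of 2 gave 361. The 2516 calls without gonad 3 became 4086 without the other 4 bright arrays too, 1067 with normexp and quantile normalization on those arrays, and 760 with both on all arrays but gonad 3, an alternative chosen after seeing the data, as was leaving out single arrays for the gene lists.

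Normexp with quantile normalization gave 730 calls, quantile normalization alone 749, the deposited value table of 19 samples 771 and median scaling 776 (63.4% higher), the last with a median over all genes of -0.24. These settings ended the calls of Inha, Thrb, Il33, Bmp2, Col4a4, Col4a6, Hoxc13, Pax8, Cfb, Dkk2, Col15a1, Adamts15, Des, Gas1, Hhip, Hoxc4, Hoxd10, Lamb3, Ldb3 and Star in 1 or more of them. Other filters on dim probes gave 572 and 587, the mean of all probes 577, no minimum log2 difference 583, leaving out kidney 527, slide as a block 528 and a variance trend 658. Whether equal replicate numbers mark paired samples could not be decided. Over 46 pairs of equal number in different organs the correlation of deviations from the organ means ran from -0.85 to 0.78. The median was -0.036, and 13 pairs exceeded 0.1. With so few arrays per organ the deviations within an organ are tied to each other. Arrays with a high background were also among them, so these correlations cannot exclude pairing. With the replicate block 496 genes were called, and 7 of the 107 named genes lost their call. The cause of these changes was not tested. Genes below background on gonad 1 and gonad 2 have only bounds there, and a signal near background on gonad 3 cannot be read as expression.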

Other observations

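Genes described in this section were chosen after their values were seen. Among the genes tested, runs of neighbours on a chromosome that held in 1 direction were listed. The longest was on chromosome 3, where 6 adjacent glutathione S-transferases of the mu class, Gstm7, Gstm6, Gstm3, Gstm2, Gstm1 and Gstm4, were all higher in gonad. These enzymes conjugate glutathione to electrophiles. Gstm1 had levels of 8.02, 7.26 and 6.65 in gonad, against -0.03 to 4.67 (median 3.77) elsewhere, and differed by 4.28 ± 0.50 log2 units (adjusted p = 0.000272). Gstm2 had 9.05, 8.60 and 7.96 in gonad, against 1.44 to 6.70 (median 6.24) elsewhere, and differed by 3.13 ± 0.45 log2 units (adjusted p = 0.00131). Gonad and other arrays did not overlap for Gstm6, Gstm3, Gstm2, Gstm1 and Gstm4. Gstm5, of the same family, did not pass, at 3.97, 3.32 and 2.74 in gonad, against 0.01 to 4.21 (median 3.57) elsewhere. The sequences of the family are alike, so a probe for 1 member may also read another.

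Other neighbours that were higher together included the GABA receptor subunits Gabra4 and Gabrb1 on chromosome 5. Gabrb1 had levels of 3.00, 2.86 and 1.48 in gonad, against -6.33 to 2.19 (median -2.86) elsewhere, and differed by 4.85 ± 0.55 log2 units (adjusted p = 0.000248). On chromosome 15 the surface antigen genes Ly6a and Ly6c1 were lower together. Ly6a, which encodes Sca-1, a marker of mesenchymal progenitors, had -0.55, -0.80 and -0.87 in gonad, against -1.37 to 7.21 (median 4.38) elsewhere, and differed by -4.88 ± 0.67 log2 units (adjusted p = 0.00102). Ly6c1 had 0.49, 0.60 and -0.38 in gonad, against -0.19 to 8.23 (median 5.38) elsewhere, and differed by -4.90 ± 0.69 log2 units (adjusted p = 0.00123).

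Transcription factors that pattern other parts of the body were among the lower genes. Meox2, a homeobox factor of somites and limbs, had levels of -7.26, -6.19 and -1.76 in gonad, against -2.19 to 4.22 (median -0.39) elsewhere, and differed by -5.54 ± 0.76 log2 units (adjusted p = 0.000989). Irx1 had -5.82, -6.88 and -2.46 in gonad, against -5.07 to 6.02 (median -0.87) elsewhere, with skin highest at 5.75, and differed by -4.98 ± 0.70 log2 units (adjusted p = 0.00116). Tbx5, a factor of heart, lung and forelimb, had -7.17, -6.97 and -2.47 in gonad, against -4.93 to 1.91 (median -1.68) elsewhere, and differed by -4.47 ± 0.92 log2 units (adjusted p = 0.0155). Tbx15 was lower, at -2.98 ± 0.48 log2 units (adjusted p = 0.00306), and was well above background on every gonad array. In gonad, Meox2, Irx1 and Tbx5 were well above background on gonad 3 alone, the array with the raised background, so their fitted differences rest in part on values below background. In the other direction, Tbx1 had 2.38, 2.27 and 1.94 in gonad, against -6.28 to 3.85 (median -1.57) elsewhere, and Hopx, an atypical homeobox protein, had 1.04, 0.64 and 1.52 in gonad, against -4.97 to -1.34 (median -2.81) elsewhere, without overlap. The calls of Tbx5 and Tbx1 were lost without gonad 1 or 2 (adjusted p of 0.0553 to 0.19).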
